A study of Homo sapiens with 6 samples.

Results

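The genes of the vesicle coats were followed in RNA enriched for new transcripts from A375 cells, an established human melanoma line, with and without expression of the phosphatase PRL3. The 53 genes were listed by symbol and encode the COPI coat (9 genes), the COPII coat (11), clathrin (3), the GGA adaptors (3), the adaptor complexes AP-1 (7), AP-2 (5), AP-3 (6) and AP-4 (4), and the ARF GTPases (5). Each symbol matched 1 of the 58243 Ensembl identifiers in the count files, and all 53 passed the low-count filter that left 23884 genes for testing. The choice of genes used no measured value of these libraries, but it was made with earlier results of the same data known.

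The cells had been stably transfected with an empty vector (EV, 3 libraries, B1, B2 and B3) or with an expression plasmid for HA-tagged human PRL3 (3 libraries, B9, B10 and B11), and both lines were kept under hygromycin B. In both, the uridine analogue 4-thiouridine (4sU) was given at 500 µM for 20 min, and RNA made in that window was tagged with biotin, pulled down, depleted of ribosomal RNA and sequenced with strand information (4sU-seq). The sources do not say whether either line is a single clone or whether the libraries of a group come from separate cultures, so p-values measure only the spread between these libraries. The comparison asks how reads of this RNA on exons differ between EV and PRL3 cells. The paper states that it turned to intronic reads to avoid possible effects of splicing during transcription or of slight mRNA carry-over. How much mature mRNA the exon counts hold was not tested.

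Transport vesicles bud when small GTPases and adaptors recruit a protein coat to a membrane. COPII carries cargo out of the endoplasmic reticulum (ER), COPI returns proteins from the Golgi to the ER and moves them between Golgi cisternae, and clathrin with its adaptors works at the plasma membrane, the trans-Golgi network and endosomes. In pigment cells, AP-1 and AP-3 also sort proteins to melanosomes, the lysosome-related organelles that hold melanin.

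The libraries held 36532207 to 57952035 gene counts each. PTP4A3, which encodes PRL3, had 161, 212 and 279 normalized counts in the EV libraries and 22328, 28767 and 22065 in the PRL3 libraries (log2 fold change 6.80, standard error (SE) 0.25, adjusted p = 1.1e-08), in the direction of the labels. This and all adjusted p-values below are Benjamini-Hochberg values from the quasi-likelihood test of edgeR, unless another test is named. SOX10, a factor of the melanocyte lineage, was present at 10593 to 28364 normalized counts, while the melanin genes MLANA, TYR, TYRP1 and DCT had at most 24 in any library and the leukocyte, endothelial and epithelial markers PTPRC, PECAM1, KRT5 and EPCAM at most 17. Of the lineage markers tested, SOX10 (-0.85) and S100B (-1.38) were lower in PRL3 cells, while MITF was at 0.36 with every PRL3 library above every EV library (adjusted p = 0.074) and PMEL at -0.33 with at most 60 counts. Of the markers of dedifferentiated melanoma, SOX9 (-2.08), NGFR (-1.69) and AXL (-0.40) were lower and EGFR was at 0.09. The keratin gene KRT14, at 352 to 1217 normalized counts, was lower (-1.31). The part of these shifts in the results below was not tested. The PRL3 libraries stood apart in a further way: 62.8% to 69.1% of their uniquely aligned reads fell outside annotated exons on the counted strand, against 28.7% to 41.1% in the EV libraries. Fold changes below are of reads on exons, and the part of this shift in them was not tested.

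After TMM scaling, most coat genes had fewer 4sU-seq reads on their exons when PRL3 was expressed. Reads outside exons were not assigned to genes, so whether less RNA of these genes was newly made was not tested. At an adjusted p of 0.05, 34 of the 53 genes were lower (64.2%), 3 were higher (5.66%) and 16 did not pass. Over all 23884 genes tested, 22.7% were lower and 20% higher; for the 14443 protein-coding genes in the test these shares were 31.6% and 15.2%. The median log2 fold change of the 53 genes was -0.75 (quartiles -1.05 and -0.15), against 0.11 for all genes and -0.15 for protein-coding genes, and 45 of the 53 values were below 0. In 36 members (67.9%) every PRL3 library was below every EV library and in 4 it was above, whereas 36.7% and 22.2% of protein-coding genes were separated in these directions. None of the 43 members in COPI, COPII, clathrin, the GGAs, AP-1, AP-2 and the ARFs was higher by edgeR with TMM scaling, at an unadjusted p of 0.05, with DESeq2 or with limma-voom. In other edgeR fits some were: 1 COPII gene under upper-quartile scaling, with protein-coding genes only and without EV B1, and more under library size alone. In these bulk libraries, less of a transcript per cell and fewer cells making it cannot be told apart.

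The split depends on the scaling. With library size alone in place of TMM, which estimates the scale from the bulk of genes, 19 members were lower and 12 higher, and the median of all genes moved from 0.11 to 0.60. In that fit 16.9% of protein-coding genes were lower, against 35.8% of the members, and 36.9% of protein-coding genes were higher. By coat, the members lower and higher were then 5 and 0 in COPI, 3 and 3 in COPII, 2 and 0 in clathrin, 0 and 2 in the GGAs, 1 and 1 in AP-1, 3 and 0 in AP-2, 1 and 2 in AP-3, 0 and 3 in AP-4, and 4 and 1 in the ARFs. The members' median minus the protein-coding median was -0.58 to -0.62 under every scaling, filter and test tried, and -0.47 to -0.56 when 1 library was left out. The 53 genes together took 0.599% ± 0.0140 (SD, n = 3) of the gene counts in the EV group and 0.484% ± 0.0139 in the PRL3 group (SD, n = 3), and the ranges of this share in the 2 groups did not overlap.

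**Figure D1:**
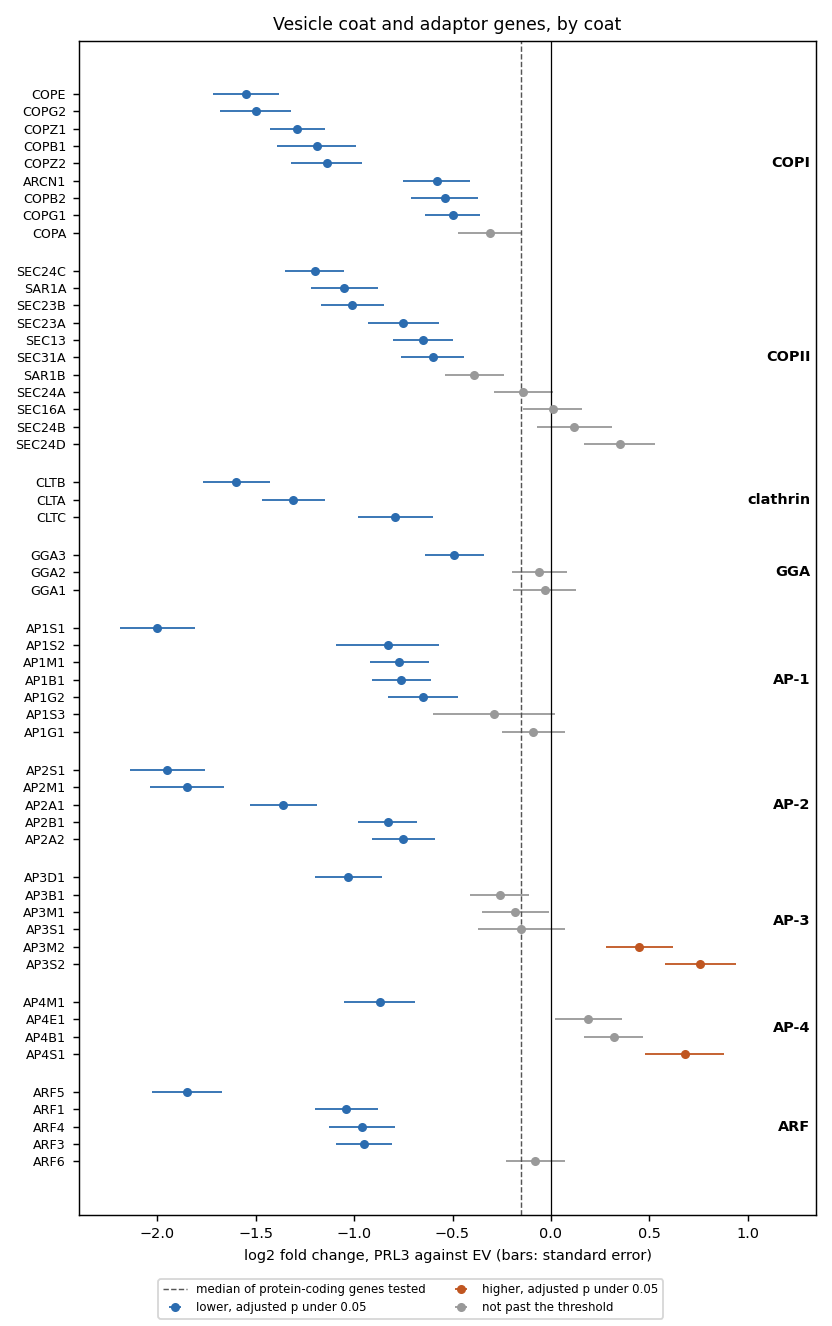
Log2 fold change of PRL3 against EV cells for each of the 53 genes, in blocks by coat, with bars of 1 standard error and colours for the call at an adjusted p of 0.05. The dashed line is the median of protein-coding genes (-0.15). The 3 higher genes are all in AP-3 and AP-4, and values run from -2.00 (AP1S1) to 0.76 (AP3S2).

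The windows around the RefSeq transcription starts (250 bases before to 50 after, GRCh38.p14) are shown for the members with the lowest and the highest fold change, AP1S1 (chr7:101154226-101154525, plus strand) and AP3S2 (chr15:89893945-89894244, minus strand), and for the 4 members whose window holds CACGTG. These letters are the core of the E-box bound by MITF and its TFE relatives, which drive many melanocyte and lysosomal genes. The 4 are SEC24A (chr5:134648535-134648834, plus strand), SEC16A (1 of 3 RefSeq starts, chr9:136484691-136484990, minus strand), AP4M1 (1 of 2 starts, chr7:100101393-100101692, plus strand) and AP1S2 (chrX:15854764-15855063, minus strand). Each sequence reads 5′ to 3′ on the strand of the gene, with CACGTG in capitals.
AP1S1: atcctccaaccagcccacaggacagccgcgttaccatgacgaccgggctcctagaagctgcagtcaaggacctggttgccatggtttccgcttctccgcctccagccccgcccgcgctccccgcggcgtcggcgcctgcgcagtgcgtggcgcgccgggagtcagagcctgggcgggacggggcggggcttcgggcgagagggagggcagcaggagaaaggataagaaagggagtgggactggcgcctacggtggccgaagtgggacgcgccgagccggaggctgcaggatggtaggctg
AP3S2: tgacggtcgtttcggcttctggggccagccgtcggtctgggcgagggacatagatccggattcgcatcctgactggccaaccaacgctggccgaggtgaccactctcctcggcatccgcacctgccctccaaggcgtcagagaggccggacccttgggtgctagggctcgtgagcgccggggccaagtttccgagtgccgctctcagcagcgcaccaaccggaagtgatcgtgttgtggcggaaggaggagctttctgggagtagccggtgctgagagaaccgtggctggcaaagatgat
SEC24A: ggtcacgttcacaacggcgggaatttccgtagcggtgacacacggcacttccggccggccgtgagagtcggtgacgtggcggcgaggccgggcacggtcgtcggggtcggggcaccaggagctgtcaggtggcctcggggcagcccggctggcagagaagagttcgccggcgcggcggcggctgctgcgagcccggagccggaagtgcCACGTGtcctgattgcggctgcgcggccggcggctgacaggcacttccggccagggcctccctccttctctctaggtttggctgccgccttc
SEC16A: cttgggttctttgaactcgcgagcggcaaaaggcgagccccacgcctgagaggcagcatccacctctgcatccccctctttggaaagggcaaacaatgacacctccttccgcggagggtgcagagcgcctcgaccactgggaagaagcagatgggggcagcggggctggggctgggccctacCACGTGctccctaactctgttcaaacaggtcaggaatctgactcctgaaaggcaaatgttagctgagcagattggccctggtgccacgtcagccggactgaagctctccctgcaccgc
AP4M1: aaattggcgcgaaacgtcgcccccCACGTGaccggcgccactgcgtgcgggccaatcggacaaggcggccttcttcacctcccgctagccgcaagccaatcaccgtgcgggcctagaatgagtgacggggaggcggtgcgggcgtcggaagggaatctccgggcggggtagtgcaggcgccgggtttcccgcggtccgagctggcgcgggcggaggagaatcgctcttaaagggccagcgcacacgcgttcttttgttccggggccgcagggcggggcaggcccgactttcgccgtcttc
AP1S2: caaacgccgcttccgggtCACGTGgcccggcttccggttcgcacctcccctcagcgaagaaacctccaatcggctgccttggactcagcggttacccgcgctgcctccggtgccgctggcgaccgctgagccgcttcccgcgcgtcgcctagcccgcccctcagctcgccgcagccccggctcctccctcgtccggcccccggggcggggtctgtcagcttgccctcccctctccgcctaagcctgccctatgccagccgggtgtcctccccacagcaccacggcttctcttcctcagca

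CACGTG, which is its own reverse complement, began 42 bases before the start in SEC24A, 68 in SEC16A, 226 in AP4M1 and 232 in AP1S2. Of the 46 members with a RefSeq window, 8.70% held it in at least 1 window, against 12.2% of 11616 protein-coding genes tested, and over windows the shares were 6.06% of the members' 66 and 7.26% of all 35116. The motif was in 2 of the 31 lower members with a window (AP4M1 and AP1S2) and in 2 of the 15 others (SEC24A and SEC16A). The related letters CATGTG, searched with their reverse complement CACATG, which share no match with CACGTG, were in the windows of 4.35% of the 46 members and 10.6% of the protein-coding genes. AP1S1 and AP3S2, at the 2 ends of the range of fold changes, held no CACGTG. AP1M1, AP3B1, AP3D1, AP3M2, ARF4, GGA2 and SEC24D had no window in the table.

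COPI is built from the subunits α to ζ, with paralogs for the γ and ζ subunits. All 9 COPI genes had every PRL3 library below every EV library, and 8 were lower (median log2 fold change -1.14). The lowest was COPE, the ε subunit (chromosome 19, 18899514 to 18919387). It had 6745, 9347 and 6720 normalized counts in the EV libraries B1, B2 and B3 and 2539, 2888 and 2387 in the PRL3 libraries B9, B10 and B11, and this order of libraries holds for all values below. The PRL3 values lay well under the EV values, at a log2 fold change of -1.55 (SE 0.17, adjusted p = 2.1e-05). COPZ1, a ζ subunit, had 8065, 7183 and 6981 against 2983, 2994 and 3120 (-1.29, SE 0.14, adjusted p = 2e-05), with both groups tight. COPG2, a γ subunit, had 2264, 1850 and 1599 against 610, 717 and 689 (-1.50, SE 0.18, adjusted p = 3.1e-05), and its paralog COPG1 had 7788, 8298 and 7823 against 5775, 6059 and 5047 (-0.50, SE 0.14, adjusted p = 0.012). Both γ genes were thus lower, COPG2 by the larger value.

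COPB1, the β subunit, fell to 1831, 1958 and 2068 from 5979, 3893 and 3490 (-1.19, SE 0.20, adjusted p = 0.00033), with EV B1 above the other EV libraries. COPZ2, the lesser ζ gene, had 771, 899 and 874 against 403, 401 and 351 (-1.14, SE 0.18, adjusted p = 0.00027). ARCN1 (δ subunit, -0.58) and COPB2 (β′ subunit, -0.54) had smaller falls. COPA, the α subunit (chromosome 1, 160288594 to 160343566), stood at the other end of the coat: 16528, 15464 and 15886 against 15074, 12530 and 11019. PRL3 B9 came close to the EV libraries, and the difference of -0.31 (SE 0.16) did not pass (adjusted p = 0.13).

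The calls of 3 COPI genes, COPB2, ARCN1 and COPG1, were lost under upper-quartile scaling, under library size alone and with protein-coding genes only, which left 5 of 9 lower, and when single libraries were left out. COPB2 did not pass without EV B1 (-0.35, adjusted p = 0.06) or without PRL3 B9, B10 or B11 (adjusted p = 0.077, 0.056 and 0.065). ARCN1 did not pass without PRL3 B10 (adjusted p = 0.069) or B11 (0.079), nor COPG1 without PRL3 B11 (0.091).

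Per kb of annotated exon, the coatomer genes differed in level. In EV libraries COPE stood at 2645 ± 525 normalized counts per kb (SD, n = 3), ARCN1 at 1904 ± 335, COPZ1 at 1901 ± 148 and COPG1 at 1801 ± 64.4, and the last 3 were within their spread of each other. In PRL3 libraries ARCN1 (1274 ± 189) and COPG1 (1272 ± 118) were above COPE (906 ± 89.3) and COPZ1 (778 ± 19.6). COPA (904 ± 30.3 in EV), COPB1 (874 ± 262) and COPB2 (493 ± 108) were lower, and COPG2 (460 ± 81.1) and COPZ2 (454 ± 36.3) were the lowest of the coat. Annotated exonic length counts every exon in the annotation, so a gene with many alternative exons, as COPA (17664 bases) and COPB2 (18721 bases), has a low value per kb on this scale.

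COPII assembles when the GTPase SAR1 recruits SEC23 with SEC24, the cargo-binding inner layer, and then SEC13 with SEC31, the outer cage, at exit sites that SEC16 organises. Of the 11 COPII genes, 6 were lower, none was higher and 5 did not pass (median -0.60; 7 had groups that did not overlap, all of them lower). SEC24C, 1 of 4 SEC24 paralogs (chromosome 10, 73744372 to 73772161), was the lowest, with 8131, 8679 and 7091 against 3148, 3704 and 3515 (-1.20, SE 0.15, adjusted p = 4.1e-05). The GTPase gene SAR1A had 6011, 4481 and 4411 against 2180, 2372 and 2648 (-1.05, SE 0.17, adjusted p = 0.00025). SEC23B had 5238, 4399 and 3867 against 2424, 2325 and 1957 (-1.01, SE 0.16, adjusted p = 0.0003). In all 3 the highest PRL3 library was well below the lowest EV library.

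The outer cage genes SEC13 (8285, 9316 and 7891 against 5411, 5893 and 4929; log2 fold change -0.65, adjusted p = 0.003) and SEC31A (-0.60, adjusted p = 0.0076) fell by less, and SEC23A was at -0.75 (adjusted p = 0.0049). The other SEC24 genes did not follow SEC24C. SEC24D (chromosome 4, 118722823 to 118838683) had 2164, 1432 and 1852 against 2599, 2149 and 2195, with PRL3 B10 just under EV B1 (0.35, SE 0.18, adjusted p = 0.13; 0.50 and adjusted p = 0.027 without EV B1). SEC24A was at -0.14 and SEC24B at 0.12, with overlapping groups. SEC16A, which scaffolds exit sites, had 8251, 10277 and 9116 against 9505, 9701 and 8558, a log2 fold change of 0.01 (SE 0.15, adjusted p = 0.98).

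SAR1B, the paralog of SAR1A, had 2795, 2193 and 2422 against 1921, 1728 and 2008 (-0.39, SE 0.15, adjusted p = 0.058), so it fell just short of the threshold. It passed without EV B2 (adjusted p = 0.045), under RLE scaling (0.04), by DESeq2 (0.028), by limma-voom (0.048) and when scaled by all uniquely aligned reads (0.00068), and stood at 0.11 under library size alone. SAR1B and SEC24A lie head to head on chromosome 5 on opposite strands, and their annotated spans overlap by 487 bases. The authors counted reads by strand, so reads of the 2 genes were kept apart.

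All 3 clathrin genes were lower. CLTB, a light chain (chromosome 5, 176392501 to 176416539), had 6326, 8546 and 6547 against 2035, 2650 and 2382 (-1.60, SE 0.17, adjusted p = 1.8e-05). CLTA, the other light chain, had 14487, 16526 and 13595 against 5336, 6949 and 5733 (-1.31, SE 0.16, adjusted p = 3.7e-05). CLTC, the heavy chain that forms the lattice (chromosome 17, 59619684 to 59696956), had 25720, 17716 and 16487 against 9809, 11276 and 13533 (-0.79, SE 0.19, adjusted p = 0.0049). Its groups did not overlap, PRL3 B11 and EV B3 were the nearest libraries of the 2 groups, and EV B1 was the highest EV library.

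The GGA proteins are monomeric adaptors that bind ARF and sorting receptors at the trans-Golgi network. GGA3 (chromosome 17, 75236599 to 75262363) was lower, with 2852, 3339 and 3324 against 2162, 2397 and 2230 (-0.49, SE 0.15, adjusted p = 0.016). It did not pass without PRL3 B9 (adjusted p = 0.075) or B11 (0.076), under upper-quartile scaling (-0.31, adjusted p = 0.1) or with protein-coding genes only (-0.31, adjusted p = 0.091), and was at 0.0016 under library size alone. GGA1 (chromosome 22, 37608725 to 37633564) had 2314, 3096 and 3047 against 2696, 2868 and 2720 (-0.03, adjusted p = 0.9), and GGA2 was at -0.06 (adjusted p = 0.78), with overlapping groups in both.

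AP-2, the adaptor of clathrin at the plasma membrane, was the adaptor complex in which every gene was lower (5 of 5, median -1.36, no group overlap). AP2S1, the small σ subunit (chromosome 19, 46838136 to 46850846), had 12866, 17571 and 13185 against 3156, 4573 and 3583, a 3.86-fold lower level (-1.95, SE 0.19, adjusted p = 1.2e-05). AP2M1, the μ subunit that reads tyrosine sorting signals, had 21006, 24023 and 18104 against 4834, 7471 and 5228, a 3.60-fold lower level (-1.85, SE 0.19, adjusted p = 1.6e-05). In both genes EV B2 and PRL3 B10 were the highest libraries of their groups. The large subunit genes AP2A1 (5517, 6753 and 4889 against 2183, 2490 and 2007; -1.36, adjusted p = 3.7e-05), AP2B1 (-0.83, adjusted p = 0.00079) and AP2A2 (-0.75, adjusted p = 0.0023) had values nearer to 0 than the μ and σ genes.

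AP2A2 (chromosome 11, 924881 to 1012245) was the least changed gene of the complex, with 2749, 2959 and 2345 against 1632, 1776 and 1383. Per kb of annotated exon, AP2S1 stood at 9333 ± 1688 in EV and 2420 ± 467 in PRL3 libraries. AP2M1 (3137 ± 441) was above AP2B1 (1755 ± 263) in EV libraries, while in PRL3 libraries the 2 were within their spread (871 ± 212 and 987 ± 39.9). AP2A1 was at 656 ± 109 and 256 ± 28.1, and AP2A2 at 184 ± 21.4 and 109 ± 13.6.

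AP-1 sorts between the trans-Golgi network and endosomes. Of its 7 genes, 5 were lower and 2 did not pass (median -0.76). AP1S1, a σ subunit, had the lowest fold change of all 53 genes. Its 7179, 9255 and 6146 normalized counts in EV libraries compared with 1661, 2290 and 1685 in PRL3 libraries, a 4.00-fold lower level (-2.00, SE 0.19, adjusted p = 1.2e-05), and the groups were far apart. The gene is short, with 7141 bases from 101154456 to 101161596 on chromosome 7, and its promoter window is shown above. AP1M1 (μ subunit, -0.77, adjusted p = 0.0011), AP1B1 (large β subunit, -0.76, adjusted p = 0.0014) and AP1G2 (large γ subunit, -0.65, adjusted p = 0.0098) were lower by similar amounts, AP1G2 only with PRL3 B11 in the fit (adjusted p = 0.075 without it).

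The other σ genes of AP-1 behaved unevenly. AP1S2 had 2611, 1546 and 1159 against 928, 860 and 1206 (-0.83, SE 0.26, adjusted p = 0.019), so PRL3 B11 was above EV B3. Without EV B1 its value was -0.44 (adjusted p = 0.098), and it did not pass without PRL3 B9 (0.078) or B10 (0.081) either. AP1S3 had the fewest reads of the 53 genes (201, 117 and 185 against 164, 115 and 132), and its value of -0.29 had the widest error (SE 0.31, adjusted p = 0.48). In a later annotation than that of the counting, 19.7% of its exonic bases lie under another gene on the same strand. Reads on such bases are by default set aside as ambiguous by htseq-count, and how many were lost in AP1S3 was not examined. AP1G1 (chromosome 16, 71729000 to 71809201), the γ gene with the higher level per kb (441 ± 71.5 in EV libraries, against 166 ± 8.12 for AP1G2), had 5745, 4460 and 4320 against 4569, 4271 and 4803 (-0.09, SE 0.16, adjusted p = 0.67).

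AP-3 carries proteins from endosomes to lysosomes and melanosomes. With TMM scaling it was split: 1 gene lower, 2 higher and 3 not past the threshold (median -0.17, which was 0.33 under library size alone and 0.02 under upper-quartile scaling). When scaled by all uniquely aligned reads, 4 of its genes were lower and 0 higher (median -0.65). AP3D1, the δ large subunit (chromosome 19, 2100988 to 2164468), had 6145, 7411 and 5328 against 2931, 3489 and 2798 (-1.03, SE 0.17, adjusted p = 0.00028). AP3S2, a σ subunit (chromosome 15, 89830599 to 89894638), had 745, 823 and 1080 against 1669, 1432 and 1389, a 1.69-fold higher level (0.76, SE 0.18, adjusted p = 0.0044). All PRL3 libraries exceeded all EV libraries in AP3S2. In a later annotation than that of the counting, however, 21.1% of its exonic bases are shared with a neighbouring gene on the same strand, so its count may cover only part of its exons. It passed when any 1 library was left out, but not when libraries were scaled by all uniquely aligned reads (0.29, adjusted p = 0.22).

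AP3M2, a μ subunit, had 1768, 1230 and 1770 against 2113, 2177 and 2225 (0.45, SE 0.17, adjusted p = 0.048). This call did not pass without EV B2 (0.31, adjusted p = 0.13) or without PRL3 B9, B10 or B11 (adjusted p = 0.098, 0.11 and 0.13) or under RLE scaling (0.058), and its sign turned when libraries were scaled by all uniquely aligned reads (-0.023). AP3B1 (large β subunit, -0.26), AP3M1 (μ, -0.18) and AP3S1 (σ, -0.15) did not pass. AP3S1 had 3210, 1840 and 1772 against 1737, 2106 and 2295, so that EV B1 alone lay above the PRL3 libraries.

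AP-4 buds from the trans-Golgi network without clathrin and carries the autophagy protein ATG9A. Its genes also moved in both directions with TMM scaling (1 lower, 1 higher, median 0.25). When scaled by all uniquely aligned reads 1 was lower and 0 higher (median -0.23), and under library size alone 0 and 3 (median 0.75). AP4M1, the μ subunit (chromosome 7, 100101549 to 100110345), had 1844, 2170 and 1521 against 864, 1160 and 1002 (-0.87, SE 0.18, adjusted p = 0.0019). AP4S1, the σ subunit (chromosome 14, 31025106 to 31130996), had 320, 292 and 303 against 500, 447 and 521, a 1.60-fold higher level with no overlap (0.68, SE 0.20, adjusted p = 0.015). Without PRL3 B9 or B11 it did not pass (adjusted p = 0.055 and 0.075), nor when libraries were scaled by all uniquely aligned reads (0.20, adjusted p = 0.48). AP4B1 had 2405, 1871 and 1938 against 2704, 2506 and 2541, also without overlap, but its 0.32 did not pass (SE 0.15, adjusted p = 0.11; 0.44 and adjusted p = 0.023 without EV B1), and AP4E1 was at 0.19 (adjusted p = 0.4).

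**Figure D2:**
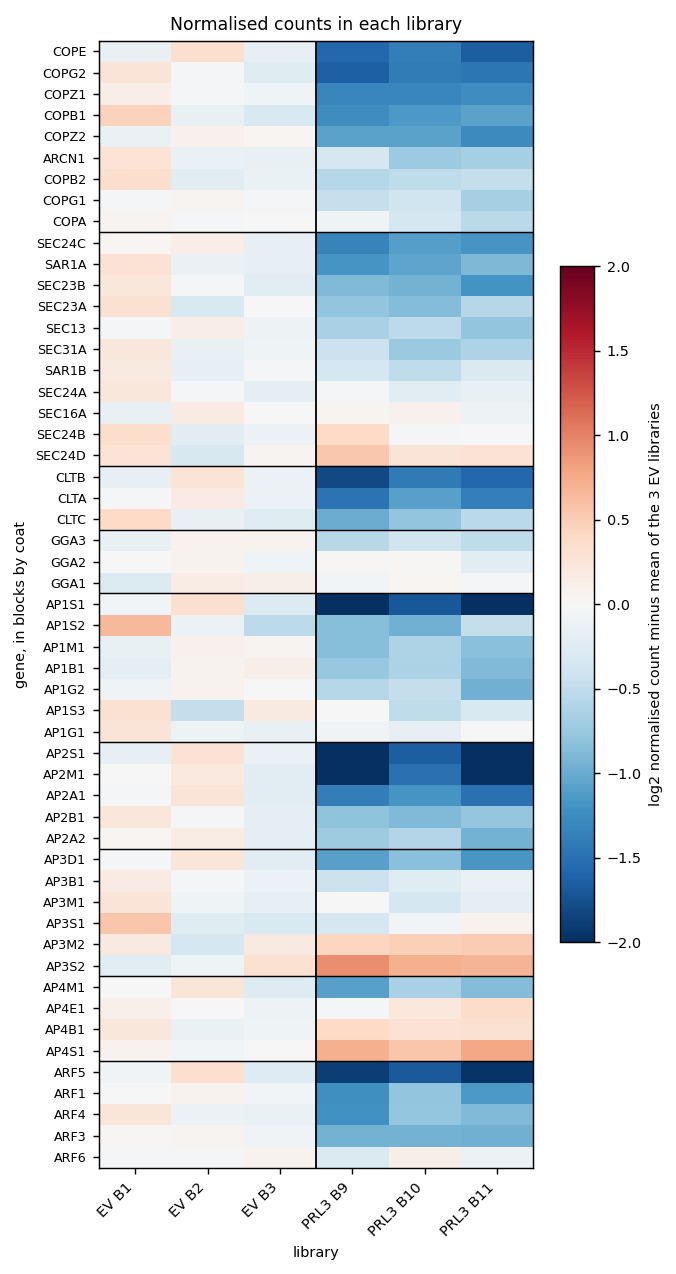
Log2 normalized count of each of the 53 genes in each library, minus the mean of the 3 EV libraries, in blocks by coat (blue below that mean, red above, colours ending at -2 and 2). The PRL3 columns are blue through COPI, clathrin and AP-2 and red for AP3S2 and AP4S1. EV B1 was the highest EV library in 26 of the 53 genes and EV B3 the lowest in 30.

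The ARF GTPases recruit coats once loaded with GTP. Of the 5 genes, 4 were lower (median -0.96). ARF5 (chromosome 7, 127588386 to 127591700) was the lowest, with 3963, 5159 and 3482 against 1125, 1298 and 1060, a 3.62-fold lower level (-1.85, SE 0.18, adjusted p = 1.2e-05). In a later annotation than that of the counting, 16% of the exonic bases of ARF5 and 14% of those of ARF3 are shared with another gene on the same strand. ARF1, which recruits COPI, AP-1, AP-3 and the GGAs, had 30281, 31840 and 29151 against 13049, 17580 and 13783 (-1.04, SE 0.16, adjusted p = 0.0002). ARF3 (-0.95, adjusted p = 0.00013) and ARF4 (-0.96, adjusted p = 0.00053) were lower by a like amount.

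ARF6, which acts at the plasma membrane and in endosomal recycling (chromosome 14, 49893079 to 49897054), had 6631, 6631 and 7115 against 5582, 7396 and 6271. PRL3 B10 was above every EV library, and the value of -0.08 did not pass (SE 0.15, adjusted p = 0.69). It is the only member without an intron in the annotation, with a gene span and an exonic length of 3976 bases each. Per kb of exon, ARF1 (9413 ± 418 in EV libraries) and AP2S1 (9333 ± 1688) were the highest of the 53 genes and did not differ beyond their spread, followed by CLTA (5915 ± 598) and AP1S1 (4430 ± 932). In PRL3 libraries ARF1 (4580 ± 752) was ahead of AP2S1 (2420 ± 467) and CLTA (2389 ± 334). The lowest were AP1S3 (17.3 ± 4.61 in EV) and AP4S1 (30.3 ± 1.40 in EV and 48.6 ± 3.78 in PRL3).

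Paralogs and partners of the same coat were then set against each other within each library, as the log2 ratio of their counts, which no scaling between libraries can move. Of 16 pairs, 10 had ratios that did not overlap between the groups. The share of other gene pairs that separate in this way was not computed. Of single protein-coding genes, 36.7% had every PRL3 library below every EV library and 22.2% had every PRL3 library above. With 3 libraries against 3, the two-sided exact permutation test cannot give a p below 0.1, which these 10 reached (0.16 after Benjamini-Hochberg adjustment over the 16 pairs), so none passed. The ratio of SEC24C to SEC24D moved most, with log2 values of 1.91, 2.60 and 1.94 in EV libraries and 0.28, 0.79 and 0.68 in PRL3 libraries, a difference of -1.57. Every EV library thus had a higher ratio than any PRL3 library.

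For AP1S1 and AP1S2 the log2 ratio was 1.46, 2.58 and 2.41 against 0.84, 1.41 and 0.48 (difference -1.24), with EV B1 and PRL3 B10 nearly touching. COPG1 was present at 3.44, 4.48 and 4.89 times the counts of COPG2 in EV libraries and at 9.47, 8.44 and 7.32 times in PRL3 libraries (difference in log2 0.99). ARF4 to ARF5 went from 1.12, 0.37 and 0.93 to 1.48, 1.70 and 1.89 (0.88). In these pairs the member with the larger fall took a smaller part of the pair's reads in PRL3 cells.

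SAR1A to SAR1B differed by -0.65, AP3M1 to AP3M2 by -0.65, COPB1 to COPB2 (not paralogs) by -0.63 and AP2A1 to AP2A2 by -0.60. The AP2A1 to AP2A2 log2 ratio was 1.00, 1.19 and 1.06 against 0.42, 0.49 and 0.54, among the tightest of the pairs. CLTA to CLTB (0.28) and SEC24A to SEC24B (-0.26) had small differences without overlap. The groups overlapped for AP3S1 to AP3S2 (-0.88), AP1G1 to AP1G2 (0.59), SEC23A to SEC23B (0.27), COPZ1 to COPZ2 (-0.15), ARF1 to ARF3 (-0.10) and AP1B1 to AP2B1 (0.07).

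**Figure D3:**
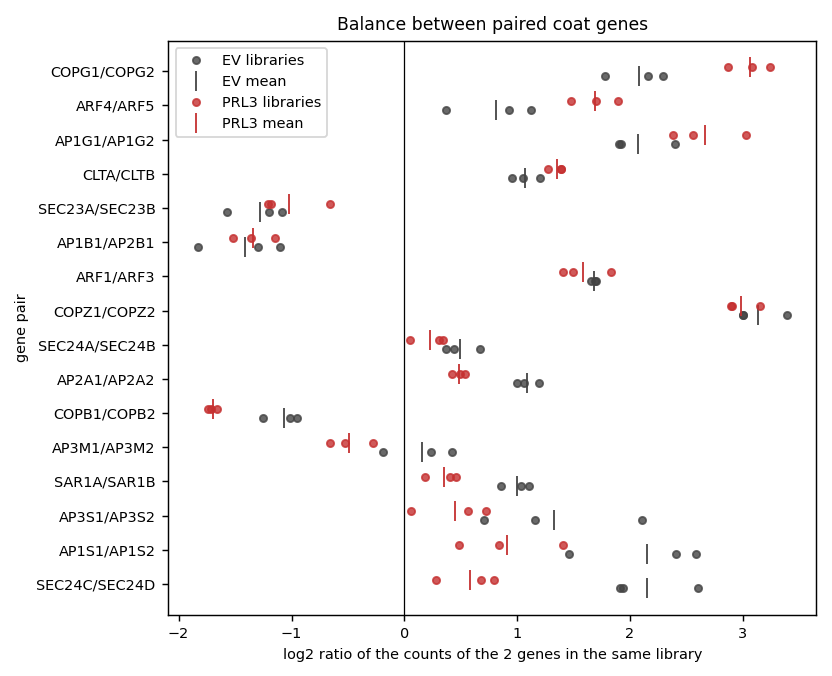
Log2 ratio of the counts of the 2 genes of each pair in the same library (EV grey, PRL3 red, 3 points each, ticks for the group means), sorted by the difference between the groups. The ratios run apart for SEC24C/SEC24D (-1.57) and COPG1/COPG2 (0.99) and overlap for AP1B1/AP2B1 (0.07).

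The fold change went with some measures of gene architecture and not with others. Across the 53 members, Spearman's rho of the log2 fold change was 0.54 with annotated exonic length and 0.34 with gene length, against 0.28 and 0.30 across the 14443 protein-coding genes. With the exonic share of the gene it was -0.01 in the members and -0.20 in protein-coding genes. With the number of merged exons it was 0.33 and 0.13, and with the mean level -0.34 and -0.22. With the mean level per kb over all 6 libraries it was -0.58 in the members and -0.33 in protein-coding genes. That measure shares the counts and the exonic length with the other quantities. These are descriptions across genes, which are not independent replicates and share the same 6 libraries.

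Of the 27 members with an exonic length at or below their median of 6467 bases, 21 were lower and 1 was higher (median -0.96), and of the 26 longer ones 13 were lower and 2 higher (median -0.46). Protein-coding genes split at the same length had medians of -0.35 and 0.07. The members' medians were thus below those of protein-coding genes of the same length class in both classes. The σ genes AP2S1 (1558 bases), AP1S1 (1699 bases) and the GTPase gene ARF5 (1825 bases) are the shortest members by exon and have 3 of the 4 lowest fold changes. COPZ2 (1866 bases, -1.14) and CLTB (1963 bases, -1.60) follow in length, and AP2M1 is a member with a low value (-1.85) at 6709 bases.

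**Figure D4:**
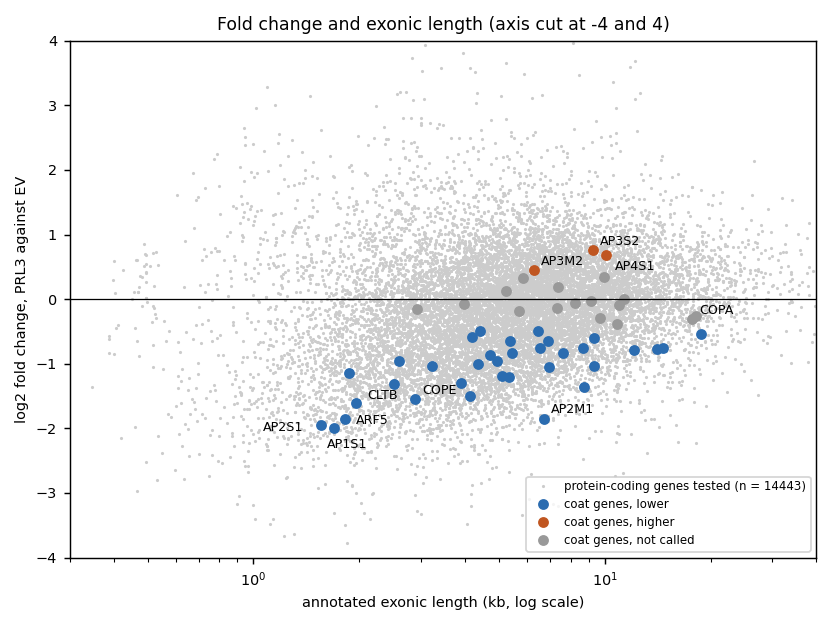
Log2 fold change of PRL3 against EV cells by annotated exonic length (kb, log scale) for the 53 coat genes (coloured by call) over the 14443 protein-coding genes tested (grey). The short genes AP2S1, AP1S1, ARF5 and CLTB lie at the lower left, and the higher genes AP3S2, AP4S1 and AP3M2 have exonic lengths of 6276 bases or more.

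Genes that work with the coats were counted in 6 lists of 103 genes, of which 102 were tested. Of these, 47 were lower and 9 higher (median -0.38). The cargo receptors and escorts of the ER and Golgi, which load COPI and COPII vesicles, were lower in 16 of 20 and higher in 0 by edgeR (median -0.92; 1 was higher at an unadjusted p of 0.05, and 0 with DESeq2 or limma-voom). Under upper-quartile scaling, with protein-coding genes only and without EV B1, 14 were lower and 2 higher, under library size alone 11 and 2, and 1 was higher with no filter or with at least 10 counts in every library. Their lowest values were those of TMED1 (4191, 6400 and 3928 against 977, 1877 and 1461; -1.75, adjusted p = 9.5e-05), of the p24 family, and ERGIC3 (13012, 15836 and 12198 against 3763, 4835 and 4099; -1.69, adjusted p = 1.3e-05). Of 10 receptors and membrane proteins that clathrin adaptors sort, 7 were lower and 1 higher (median -0.79): the tetraspanin CD63, a cargo of lysosome-directed sorting, was at -1.65 (adjusted p = 1.8e-05) and the lysosomal membrane protein LAMP1 at -0.98 (adjusted p = 0.00017).

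Of the 9 COPII exit site factors tested, 4 were lower and 0 higher (median -0.21; 0 were also higher at an unadjusted p of 0.05, with DESeq2 and with limma-voom), led by PREB, the exchange factor of SAR1 (-1.19, adjusted p = 7.7e-05), and KLHL12, a ubiquitin ligase adaptor for the COPII cage (-0.78, adjusted p = 0.0014). Under upper-quartile scaling and with protein-coding genes only these counts were 3 and 1, under library size alone 1 and 3, and without PRL3 B11 2 were lower. Of 21 ARF regulators, 7 were lower and 1 higher (median -0.26). ACAP3 (-1.33, adjusted p = 0.00022) and ARFGAP1 (-1.05, adjusted p = 0.00039), both GTPase-activating proteins, fell most, and ASAP1, of the same class, rose (0.69, adjusted p = 0.0019). The counts were 4 and 4 under upper-quartile scaling, 5 and 4 with protein-coding genes only, 2 and 9 under library size alone and 15 and 0 when scaled by all uniquely aligned reads, and 4 were lower without EV B2, PRL3 B9 or PRL3 B11. The 24 clathrin accessory genes were split, with 7 lower and 5 higher (median -0.10). HIP1R (-0.96, adjusted p = 0.00055) and NECAP2 (-0.74, adjusted p = 0.00098) were lowest, and STON2 (0.86, adjusted p = 0.013) and DAB2 (0.61, adjusted p = 0.0057), both endocytic adaptors, were highest. The counts of lower and higher genes were 5 and 6 under upper-quartile scaling, 5 and 8 with protein-coding genes only, 1 and 9 under library size alone, and 12 and 0 when scaled by all uniquely aligned reads. Without EV B2, PRL3 B9 or PRL3 B11, 3, 1 and 2 were higher.

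The 18 coat genes outside the members, which hold AP-5 and tissue-restricted subunits, had 6 lower and 2 higher (median -0.21), with AP1M2, the epithelial μ subunit of AP-1, at -1.16 (adjusted p = 0.0011), and the AP-5 gene AP5S1 (0.58, adjusted p = 0.024) and ZFYVE26, whose protein partners AP-5 (0.38, adjusted p = 0.046) higher. Without EV B2 or PRL3 B11, 2 of the 18 were lower and 1 higher, and without PRL3 B9 3 and 0; without PRL3 B10 or EV B3 5 were lower, with 0 and 1 higher. The counts were 2 and 3 under upper-quartile scaling and with protein-coding genes only, 2 and 5 under library size alone, and 13 and 0 when scaled by all uniquely aligned reads. For the sorted receptors, 2 were lower and 2 higher under library size alone, and 7 and 2 under upper-quartile scaling. When 1 library was left out, 24.7% to 32.4% of protein-coding genes were lower and 10.5% to 17% higher. In the main fit these lists stand beside 31.6% lower and 15.2% higher among protein-coding genes. The share lower was near this in the ARF regulators (33.3%), clathrin accessory genes (29.2%) and outside coat genes (33.3%). It was 44.4% in exit site factors, 70% in sorted receptors and 80% in cargo receptors. Of protein-coding genes, 25.7% were lower and 22.3% higher under upper-quartile scaling, and 16.9% and 36.9% under library size alone. These were 50.1% and 4.03% under all uniquely aligned reads and 26.7% and 23.9% with protein-coding genes only. Under library size alone, the medians of the exit site factors (0.28), ARF regulators (0.23), clathrin accessory genes (0.39) and coat genes outside the members (0.28) were above 0, whereas those of the cargo receptors (-0.43) and sorted receptors (-0.30) stayed below it. Under upper-quartile scaling and in the fit on protein-coding genes alone, the median of the clathrin accessory genes was also above 0 (0.09 and 0.08).

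**Figure D5:**
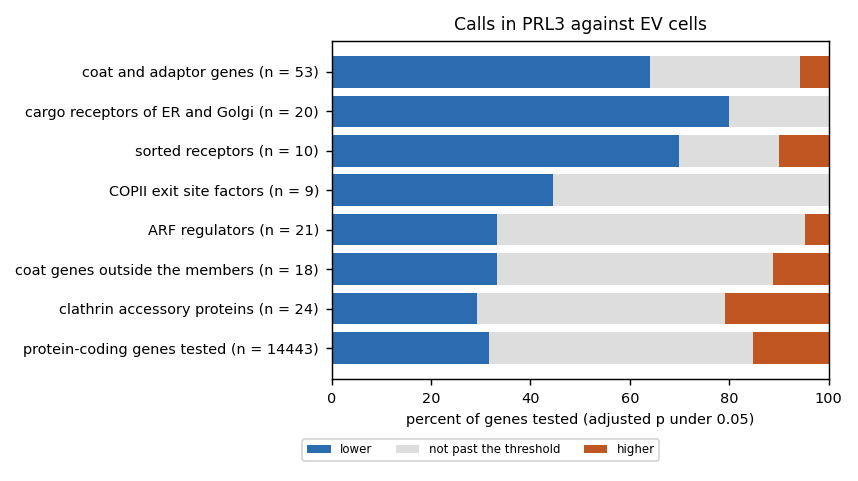
Percent of tested genes lower (blue), not past the threshold (grey) and higher (orange) in PRL3 against EV cells, for the coat and adaptor genes, the 6 lists of genes that work with them, and all protein-coding genes tested. The lower part covers 64.2% of the coat and adaptor genes, 80% of the cargo receptors and 31.6% of protein-coding genes.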

How the data were processed

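The deposited values are raw counts of 4sU-seq reads per gene, 1 file per library, with no normalization. The authors aligned reads to GRCh38 with STAR 2.5.1b after FastQC 0.11.3 and counted reads on exons of Ensembl release 91 with HTSeq 0.6.1 in its reverse-strand setting, so intronic reads of nascent RNA were left out of the counts. Summary lines of the counter stayed out of library sizes and served only for the share of reads outside exons. Names, coordinates and exonic lengths came from GENCODE 44 (57532 of 58243 identifiers matched), a later release on the same build. Promoter windows came from RefSeq (GRCh38.p14).

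The 3 PRL3 libraries were compared with the 3 EV libraries in R 4.3.3 with edgeR 4.0.16 (TMM scaling, filterByExpr by group, quasi-likelihood test, Benjamini-Hochberg adjustment over 23884 genes, threshold 0.05), after the procedure was tested on simulated data. Standard errors were derived from the F statistic. To normalize, each count was divided by its library's effective size and multiplied by the mean of these sizes. Ratios of paired genes used counts plus 0.5 and a two-sided exact permutation test (scipy 1.17.1). Library totals were 36532207 to 57952035, and no 2 libraries agreed within sampling noise (the lowest mean chi-square per gene of any pair was 24.7). The 53 members and the 6 lists of other coat-related genes were chosen with earlier results of these data known. Any member could be named; libraries are given for the lowest and highest member of each coat and for others that passed or whose pairs are described, and each of the lists is given by its counts and its up to 2 lowest and 2 highest genes past the threshold, of which 2 genes are not reported here. The alternatives covered scaling by RLE, by the upper quartile and by library size, scaling by all uniquely aligned reads, no filter beyond 1 count, at least 10 counts in every library, protein-coding genes only, DESeq2 1.42.0, limma-voom (limma 3.58.1), an adjusted p of 0.01, 1 count added in the pair ratios and leaving out each library.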

Additional observations from a re-analysis of the deposited data

Results flagged for a closer look

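Uniquely aligned reads outside annotated exons, which enter none of the comparisons above, made up 66.3% ± 3.18 (SD, n = 3) of the reads of the PRL3 libraries and 33.3% ± 6.75 (SD, n = 3) of those of the EV libraries, and the ranges did not overlap. The share is given because it is a signal outside the counted genes that was above the control level. Its part in the fold changes of the coat genes was not tested.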

How the results depend on the processing

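The median log2 fold change of the members and of the 5 coat groups listed below stayed below 0 in every alternative run, and 19 members were lower in all of them (AP1S1, AP2A1, AP2M1, AP2S1, AP3D1, ARF1, ARF3, ARF4, ARF5, CLTA, CLTB, COPB1, COPE, COPG2, COPZ1, COPZ2, SAR1A, SEC23B and SEC24C), whereas 0 were higher in all. Some of these groups pool coats whose own medians did not stay below 0. The AP-4 median was 0.25 in the main fit, and the AP-3 median was 0.33 under library size alone. The GGA median was -0.06 in the main fit, 0.12 under upper-quartile scaling and 0.44 under library size alone. The size of the medians and the count of higher members moved with the scaling. For the members, COPI, COPII, clathrin with the GGAs, AP-1 to AP-4 and the ARFs in turn, the medians were -0.57, -0.96, -0.41, -0.46, -0.52 and -0.78 under upper-quartile scaling, -0.25, -0.65, -0.10, -0.15, -0.21 and -0.47 under library size alone, -1.23, -1.62, -1.09, -1.12, -1.18 and -1.44 under all uniquely aligned reads, and -0.57, -0.96, -0.42, -0.46, -0.52 and -0.78 with protein-coding genes only. The median of all genes was 0.11 under TMM, 0.07 under RLE, 0.29 under upper-quartile, 0.60 under library size and -0.36 under all uniquely aligned reads, so that each scaling shifted every gene by a like amount. Members higher numbered 5 under upper-quartile scaling, 12 under library size alone (with 19 lower), 0 under all uniquely aligned reads, 5 with protein-coding genes only and 1 at an adjusted p of 0.01. Of protein-coding genes, 22.3% were higher under upper-quartile scaling and 36.9% under library size alone (with 16.9% lower). These shares were 4.03% under all uniquely aligned reads and 23.9% with protein-coding genes only.

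Some members changed sign, among them GGA3 (-0.49 in the main fit) and AP3M2 (0.45), which had passed the threshold there. Under library size alone COPA was at 0.19, SEC24A 0.36, SAR1B 0.11, AP1G1 0.41, AP1S3 0.20, AP3B1 0.23, AP3M1 0.32, AP3S1 0.35, GGA1 0.46, GGA2 0.44, GGA3 0.0016 and ARF6 0.40. Under upper-quartile scaling SEC24A was at 0.050, AP1G1 0.096, AP3M1 0.0067, AP3S1 0.038, GGA1 0.14, GGA2 0.12 and ARF6 0.093, and with protein-coding genes only these were at 0.048, 0.094, 0.0036, 0.034, 0.15, 0.13 and 0.096. Under all uniquely aligned reads SEC16A was at -0.47, SEC24B -0.36, SEC24D -0.13, AP3M2 -0.023, AP4B1 -0.16 and AP4E1 -0.29. SEC16A was at -0.034 under RLE scaling and with DESeq2, and GGA1 at 0.012 with at least 10 counts in every library.

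With 1 library left out, 29 to 35 members were lower and 1 to 5 higher: 5 without EV B1, and 1 without PRL3 B9 or B11. Of protein-coding genes, 24.7% to 32.4% were then lower and 10.5% to 17% higher. The medians ranged from -0.73 to -0.58 (members), -1.16 to -0.92 (COPI), -0.65 to -0.48 (COPII) and -0.73 to -0.57 (AP-1 to AP-4). Ranges that crossed 0 were -0.071 to 0.11 for SEC16A, -0.020 to 0.31 for SEC24B, -0.17 to 0.050 for AP1G1, -0.31 to 0.18 for AP3S1, -0.16 to 0.060 for GGA1, -0.11 to 0.030 for GGA2, -0.19 to 0.018 for ARF6 and -0.14 to 0.22 for the log2 ratio difference of AP1B1 to AP2B1. No paired analysis was possible because EV and PRL3 libraries carry different numbers. The cause of these changes beyond the scaling itself was not tested. With 3 libraries a group, the errors of about 0.14 to 0.31 on the log2 scale limit what can be called, and AP1S3, with the fewest reads, had the widest.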
